A study of Homo sapiens with 6 samples.

Results

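A set of 10 genes that mark or drive the epithelial-mesenchymal transition (EMT) was followed in renal cell carcinoma cells in which the ubiquitin ligase RNF25 had been knocked down. They were taken by symbol from the 30267 genes of the expression table, and all 10 had a row. They comprised the epithelial genes CDH1, EPCAM and ESRP1, the mesenchymal genes CDH2, VIM and FN1, and the transcription factors ZEB1, ZEB2, SNAI2 and TWIST1. EMT is the program by which epithelial cells loosen their cell-cell junctions and take on a motile, mesenchymal state. In the textbook form of the program, ZEB, SNAI and TWIST factors repress CDH1 and other junction genes, while vimentin, N-cadherin and fibronectin accumulate. The ZEB factors and the microRNAs of the miR-200 family repress each other. Renal tubule cells and carcinomas derived from them are known for intermediate states in which epithelial and mesenchymal genes are expressed side by side.

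Total RNA of SW839, an established renal cell carcinoma line, was sequenced after ribosomal RNA depletion. The shControl group (n = 3) carried the pLKO vector and the shRNF25 group (n = 3) an RNF25 hairpin, and titles and genotypes give no other difference between them. The shRNF25 library names form 1 numbered series and the control names do not. Pearson r of log2 values was 0.976 to 0.987 between controls and 0.994 between shRNF25 libraries. A difference in preparation between the groups was not tested. By the study's methods such lines are made by lentiviral infection, the library names carry a single hairpin designation, and the treatment field of all 6 samples, controls included, speaks of the hairpin plasmid, so that the groups rest on titles, genotypes and library names. The submitters describe the replicates as biological, but no source used here says whether they came from separate infections, and p-values measure the spread between these libraries. Levels are given as normalized counts, which are reads per gene divided by a size factor of the library. Between 18647460 and 19943154 reads per library fell on genes. RNF25 itself had normalized counts of 694.2, 533.5 and 536.4 in shControl and 214.1, 245.7 and 265.0 in shRNF25. It fell to 41.1% of control (log2 fold change -1.27, SE 0.150, limma adjusted p = 0.000585). RNF25 shares 260 exon bases (11.2%) with STK36 on the other strand, which had means of 795 in shControl and 1180 in shRNF25. The share of STK36 reads in RNF25 was not tested. Library shControl 1 stood apart in the share of reads on MT-CO1, which was 4.54% against 1.46% to 1.80% in the other 5 libraries. Of 14 markers of renal cell carcinoma and renal tubule, 11 had a row, and PAX2, CDH16 and LRP2 had none. The summed normalized count of the 11 lay between 5422 and 7307 in shControl and between 5449 and 5922 in shRNF25. Most of it came from ANPEP (5985 and 5327). The tubule lineage factor PAX8 stood at 127.4 and 94.0, and CA9, CDH6, VCAM1, CUBN and LHX1 were below the level required for testing.

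Short sequences are shown for microRNAs known to target ZEB1 and ZEB2, because 3 of their genes had rows in the table. Of these, 1, MIR200B, met the criteria used here, a call that several alternatives below do not keep and that serves as a description. RefSeq places MIR200B, MIR200A and MIR429 next to each other on chromosome 1 of GRCh38.p14, on the plus strand. The mature 3′ arms are written 5′ to 3′ with the seed, bases 2 to 8, in capitals.
hsa-miR-200b-3p: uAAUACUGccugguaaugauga
hsa-miR-429: uAAUACUGucugguaaaaccgu
hsa-miR-200a-3p: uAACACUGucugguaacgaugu
The first lies at chr1:1167160-1167181, the second at chr1:1169055-1169076 and the last at chr1:1167916-1167937. miR-200b and miR-429 share the seed AAUACUG, as does miR-200c, whereas miR-200a shares AACACUG with miR-141. For FN1, the gene with the largest change of the 10, the bases upstream of the transcript are shown from RefSeq (GRCh38.p14, chr2:215436173-215436318, minus strand, 146 bases). They end at the start of the gene in the GENCODE 29 annotation, 104 bases before the RefSeq start, and capitals mark the only match found.
FN1 upstream: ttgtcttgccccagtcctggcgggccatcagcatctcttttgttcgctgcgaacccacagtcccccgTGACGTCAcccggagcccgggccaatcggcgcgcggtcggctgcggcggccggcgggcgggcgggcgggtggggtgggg
The capitals are a cyclic AMP response element (TGACGTCA) whose first base lies 79 bases upstream of the GENCODE start. Both strands were searched for that element, which occurred in 1.85% of 35116 RefSeq promoter windows of 300 bases. The other patterns searched were the E-box (letters CANNTG, in 68.7% of windows), the form of it that ZEB and SNAI factors prefer (letters CAGGTG, 20.6%, included in the former), the AP-1 site (letters TGACTCA, 4.95%), the TATA box (letters TATAAA, 7.33%) and the NF-κB consensus (5.91%). The windows behind these percentages hold 250 bases before and 50 bases after a RefSeq start. They are longer than the 146 bases shown, so the percentages are not matched to this stretch. The match describes the letters of this stretch and no binding was measured.

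The mesenchymal genes FN1 and VIM differed between the groups in opposite directions. With a single hairpin designation, other effects of the hairpin cannot be told apart from the loss of RNF25. Fibronectin fell to 19.4% of control and vimentin rose 2.34-fold, while E-cadherin was at 71.7% of control. FN1 and VIM met the criteria used here, and the other 8 genes, CDH1 included, did not. A gene was called when its Benjamini-Hochberg adjusted p from limma, fitted over the 16554 genes that reached a normalized count of 10 in 3 or more libraries, was below 0.05 and it differed by 1.5-fold or more. Log2 fold changes and their standard errors (SE) come from normalized counts to which 1 was added, so that changes of sparsely read genes are understated. All 10 genes passed the filter on low values, ZEB2 only with its shRNF25 libraries. FN1 was called lower, beside 7.1% of all tested genes, and VIM was called higher, beside 8.65%. With the adjusted p alone, 3 of 10 genes passed (FN1, VIM and CDH1), beside 21.3% of all tested genes. For 8 of 10 genes the shControl and shRNF25 libraries did not overlap, which also held for 42.5% of all tested genes. Every gene without overlap had a two-sided exact permutation p of 0.1, the smallest that 3 against 3 libraries allow. The log2 fold change was below 0 for 4 genes and above 0 for 6, with a median of 0.31, beside -0.01 over all tested genes. With 1 call in each direction among 10 genes, the shares of called genes lie near the background. The share without overlap was above that of all tested genes, for genes chosen with earlier results of these data known.

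**Figure D1:**
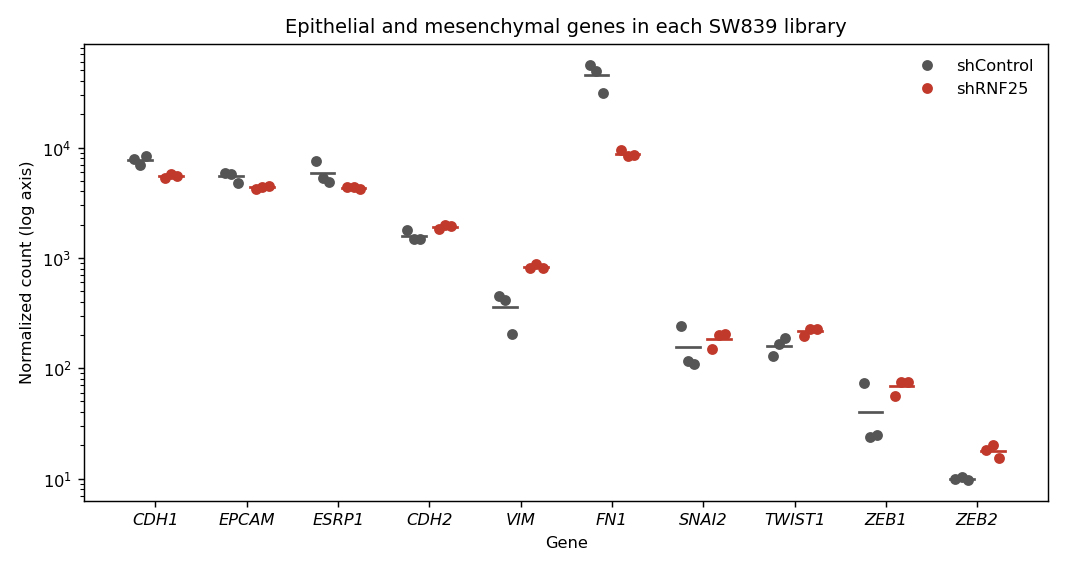
Normalized counts (log axis) of the 10 genes in each SW839 library, 1 point per library, for shControl (n = 3) and shRNF25 (n = 3). FN1 dropped from between 30895 and 56278 to between 8450.1 and 9437 and VIM climbed from between 202.9 and 447.7 to between 803.7 and 881.9, whereas the libraries of ZEB1 and SNAI2 overlapped.

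The epithelial genes were all lower in the shRNF25 libraries, by less than the fold required for a call. CDH1 encodes E-cadherin, the adhesion molecule of epithelial adherens junctions (chromosome 16, 68737225 to 68835548, plus strand; this and later gene positions are from GENCODE 29 on GRCh38). Its normalized counts were 7846, 6987 and 8305 in shControl and 5303, 5734 and 5565 in shRNF25. The lowest control library stood above the highest knockdown library. The means were 7713 ± 669.0 and 5534 ± 217.1 (SD, n = 3 each), a log2 fold change of -0.48 (SE 0.106, 95% interval -0.71 to -0.24, limma adjusted p = 0.0129). The adjusted p rose to between 0.0574 and 0.0805 when any 1 of the shRNF25 libraries was left out and to 0.0896 after quantile normalization.

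EPCAM encodes an epithelial surface glycoprotein that mediates cell adhesion and signaling (chromosome 2, 47345158 to 47387601, plus strand). It had normalized counts of 5912, 5755 and 4797 in shControl and 4205, 4430.1 and 4519 in shRNF25, without overlap. The log2 fold change was -0.32 (SE 0.112, limma adjusted p = 0.0742), a mean of 79.9% of control. ESRP1 encodes a splicing factor that maintains the epithelial isoforms of FGFR2, CD44 and other transcripts (chromosome 8, 94641074 to 94707466, plus strand). The libraries gave normalized counts of 7540.2, 5260.4 and 4890.2 in shControl and 4378, 4363 and 4231 in shRNF25. Library shControl 1 was well above the other controls, and all knockdown libraries lay close together below them. The log2 fold change of -0.42 (SE 0.157, limma adjusted p = 0.0876) was -0.23 without shControl 1.

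FN1 changed most. It encodes fibronectin, a matrix glycoprotein that binds integrins and is deposited by mesenchymal and wound-edge cells (chromosome 2, 215360440 to 215436172, minus strand). Across libraries, its normalized counts were 56278, 49268 and 30895 in shControl and 9437, 8450.1 and 8539 in shRNF25. Even the lowest control was far above the highest knockdown library, although the controls themselves spread widely. The mean fell from 45480.1 ± 13109 to 8809 ± 546.1 (SD, n = 3 each), a 5.16-fold difference and a log2 fold change of -2.32 (SE 0.201, 95% interval -2.78 to -1.87, limma adjusted p = 0.00013). Of the 16554 tested genes, 98.6% had a smaller change. Over 16 alternative settings the log2 fold change stayed between -2.58 and -1.98 and the gene was called in each.

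VIM encodes vimentin, the intermediate filament protein of mesenchymal cells (chromosome 10, 17228259 to 17237593, plus strand). Normalized counts were 447.7, 415.5 and 202.9 in shControl and 803.7, 881.9 and 810.2 in shRNF25. All 3 knockdown libraries lay above every control, and shControl 3 was the lowest. The mean rose from 355.4 ± 133.0 to 831.9 ± 43.4 (SD, n = 3 each), a log2 fold change of 1.31 (SE 0.262, 95% interval 0.72 to 1.90, limma adjusted p = 0.00805). It ranged from 0.94, without shControl 3, to 1.51, without shControl 1, and the gene was called in each of 16 alternative settings. CDH2 encodes N-cadherin, which renal tubule cells express alongside other cadherins (chromosome 18, 27950966 to 28177446, minus strand). It stood at normalized counts of 1805, 1481 and 1470.0 in shControl and 1835, 1968 and 1941 in shRNF25, with shControl 1 just under the lowest knockdown library. The log2 fold change was 0.28 (SE 0.115, limma adjusted p = 0.117).

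The transcription factors had few reads, and none of the 4 was called. TWIST1, a basic helix-loop-helix factor (chromosome 7, 19020991 to 19117672, minus strand), had normalized counts of 130.4, 165.2 and 186.7 in shControl and 196.8, 229.0 and 226.9 in shRNF25. The groups did not overlap, and the log2 fold change was 0.45 (SE 0.167, limma adjusted p = 0.0885). SNAI2 encodes Slug, a zinc finger repressor of CDH1 (chromosome 8, 48917604 to 48921740, minus strand). It had normalized counts of 239.9, 115.9 and 109.0 in shControl and 148.5, 201.3 and 203.0 in shRNF25. The highest value of all was a control library, shControl 1, while the other controls were below every knockdown library. The log2 fold change was 0.33 (SE 0.289, limma adjusted p = 0.448; two-sided exact permutation p = 0.4).

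ZEB1, a zinc finger and homeodomain repressor of CDH1 and of the miR-200 genes (chromosome 10, 31318495 to 31529814, plus strand), had the same outlying control. The values were normalized counts of 73.0, 23.6 and 24.8 in shControl and 55.6, 74.8 and 75.3 in shRNF25, from 66, 23 and 23 reads and 61, 81 and 79 reads. The log2 fold change was 0.93 (SE 0.396, limma adjusted p = 0.126; two-sided exact permutation p = 0.2). Without shControl 1, which also held the high share of MT-CO1 reads, both factors met the criteria, with log2 fold changes of 1.45 for ZEB1 (limma adjusted p = 0.00104) and 0.69 for SNAI2 (limma adjusted p = 0.0105). The part of that library's composition in these values was not tested. ZEB2, the paralog of ZEB1 (chromosome 2, 144364364 to 144524583, minus strand), was close to the limit of detection. It had 9, 10 and 9 reads in shControl and 20, 22 and 16 in shRNF25, that is normalized counts of 9.95, 10.3 and 9.71 and of 18.2, 20.3 and 15.3. The groups did not overlap. The ratio of the summed normalized reads was 1.80 with a 95% interval of 1.13 to 2.94, which covers counting error only, and the log2 fold change was 0.78 (SE 0.276, limma adjusted p = 0.0755).

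**Figure D2:**
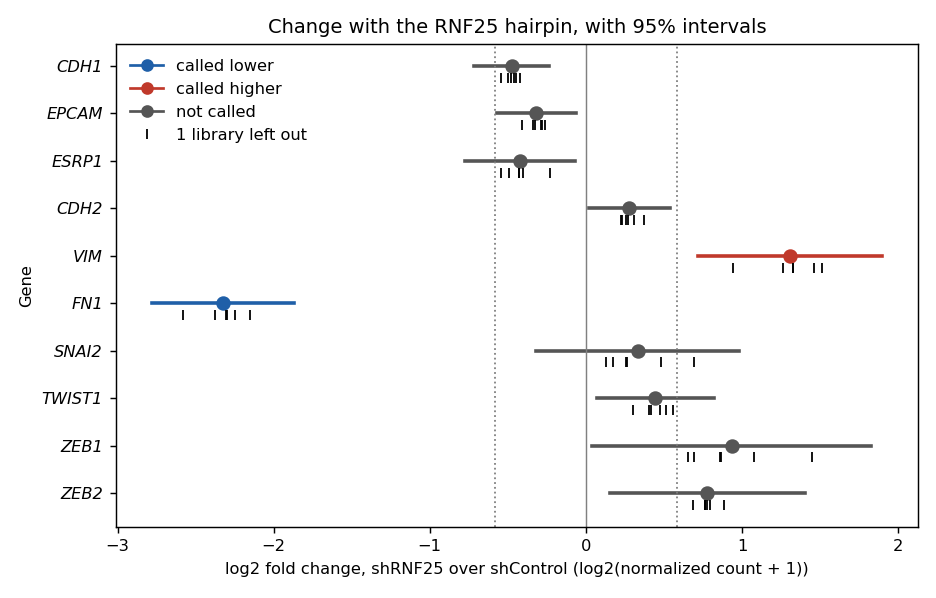
Log2 fold change (shRNF25 over shControl, log2(normalized count + 1)) of the 10 genes, with points for the estimate over 6 libraries, bars for limma's 95% interval and ticks for the estimate with 1 library left out. Dotted lines mark a 1.5-fold change, which the intervals of FN1 (-2.78 to -1.87) and VIM (0.72 to 1.90) cleared, and the ticks of ZEB1 spread from 0.66 to 1.45.

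To compare genes with each other, normalized counts were divided by the length of each gene's merged exons in GENCODE 29. Merged exons cover all annotated transcripts, 17315 bases for FN1, 25058 for ZEB2 and 2519 for EPCAM. The transcripts in use were not determined, so the order of genes depends on the annotation. On this scale, in normalized counts per kilobase, FN1 led in shControl with 2627 ± 757.1, followed by EPCAM with 2179 ± 239.5, CDH1 with 1249 ± 108.3 and ESRP1 with 1210 ± 294.4 (SD, n = 3). The libraries of FN1 and EPCAM overlapped, as did those of CDH1 and ESRP1. N-cadherin stood lower at 320.3 ± 38.5, and TWIST1 (79.1 ± 14.0), VIM (68.9 ± 25.8) and SNAI2 (45.7 ± 21.7) formed a group in which each gene overlapped its neighbour. ZEB1 (4.68 ± 3.26) and ZEB2 (0.398 ± 0.011) were lowest, without overlap. In shRNF25 the epithelial genes led, with 1741 ± 64.2 for EPCAM, 895.9 ± 35.2 for CDH1 and 887.0 ± 16.6 for ESRP1. FN1 followed as the fourth gene at 508.7 ± 31.5, and VIM at 161.3 ± 8.42 stood above TWIST1 at 107.0 ± 8.86. Only CDH1 and ESRP1 overlapped there. The epithelial genes stood far above VIM and the transcription factors per length in both groups.

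Ratios within a library do not depend on its scaling, and are given as descriptions. CDH2 amounted to 23.0%, 21.2% and 17.7% of the CDH1 normalized count in shControl and to 34.6%, 34.3% and 34.9% in shRNF25. VIM amounted to 5.71%, 5.95% and 2.44% of CDH1 in shControl and to 15.2%, 15.4% and 14.6% in shRNF25. Both mesenchymal genes were thus higher against E-cadherin in every knockdown library. The opposite held for FN1, whose log2 ratio to CDH1 was 2.84, 2.82 and 1.90 in shControl and 0.83, 0.56 and 0.62 in shRNF25. The log2 ratio of VIM to FN1 moved furthest, from a mean of -7.04 ± 0.19 to -3.40 ± 0.15 (SD, n = 3 each).

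**Figure D3:**
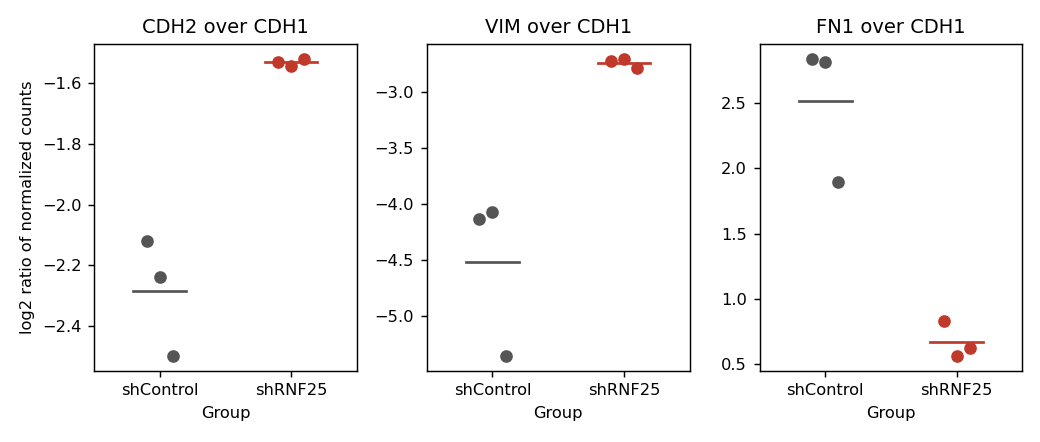
Log2 ratio of the normalized counts of CDH2, VIM and FN1 to that of CDH1 in each library, 1 point per library, 3 shControl and 3 shRNF25. The ratios of CDH2 and VIM were higher in every shRNF25 library (means of -1.53 against -2.29 and of -2.73 against -4.52), and the ratio of FN1 was lower (0.67 against 2.52).

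The wider program was described with 10 lists holding 209 symbols, of which 166 passed the filter. Of these, 45 (27.1%) were called lower, beside 7.1% of all tested genes, and 13 (7.83%) higher, beside 8.65%, and the same shares of all tested genes apply to the lists below. The median log2 fold change was -0.24. The list of mesenchymal matrix and cytoskeleton genes had the lowest median, -0.74, with 17 of 32 tested genes lower and 4 higher. Those that fell included THBS1, an adhesive matrix glycoprotein (58759 to 15396, log2 fold change -1.93), the fibronectin receptor subunit ITGA5 (2767 to 842.5, -1.65), the matrix protein TNC (10853 to 3894, -1.45) and the membrane-anchored collagenase MMP14 (7628 to 3153, -1.28). The largest falls were those of TGFBI, a TGF-β-induced matrix protein (450.6 to 23.5, -4.12), and the gelatinase MMP9 (171.2 to 19.3, -3.14). Among the higher genes of the list was COL3A1, a fibrillar collagen chain, at 5.53, 6.16 and 5.40 in shControl and 166.7, 126.5 and 193.5 in shRNF25 (log2 fold change 4.59, limma adjusted p = 8.89e-06). SPARC, a collagen-binding matrix protein, rose from 9.70 to 119.0 (3.57), S100A4, a calcium-binding protein of motile cells, from 176.8 to 511.2 (1.69) and COL5A2, another fibrillar collagen chain, from 3858 to 8477 (1.19). The S100A4 call was lost without shRNF25 1 (limma adjusted p = 0.0642). COL3A1 and SPARC passed the filter only with their shRNF25 libraries, where they were high, so their calls serve as descriptions. The fibroblast markers DCN and COL1A2 had 3 reads or fewer in every library, and the summed level of the 8 fibroblast markers with a row was 1108 to 1293 in shControl and 878.3 to 1027 in shRNF25, nearly all of it COL1A1. Below the filter, PDGFRA had 3, 1 and 2 reads in shControl and 11, 8 and 7 in shRNF25. In the same order, THY1 had 1, 0 and 0 and 2, 4 and 1, PDGFRB 3, 9 and 3 and 8, 7 and 11, and FAP 4, 0 and 0 and 3, 2 and 1. LUM went from a mean of 16.2 to 9.25 and was not called.

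Among 36 epithelial junction and surface genes, 8 were called lower and 1 higher, with a median of -0.22. The serine protease PRSS8 fell from 1233 to 619.1 (log2 fold change -0.98), the surface glycoprotein CD24 from 4821 to 2755 (-0.81), the tight junction protein CLDN7 from 3530.3 to 2052 (-0.77), keratin KRT7 from 59979 to 35484 (-0.72) and the desmosomal proteins JUP and DSP by 0.60 each on the log2 scale. PPL, a desmosome-linked cornified envelope protein, rose from 1751 to 3426 (0.97). The KRT7 call was lost in 5 of 16 alternatives, with log2 fold changes from -0.87 to -0.22 over all of them, and the DSP call in 6. The count of lower genes depended on the scaling. It was 3 after quantile normalization and 4 after rescaling on the median ratio, 5, 4, 4 and 3 without shControl 3, shRNF25 1, shRNF25 2 and shRNF25 3, respectively, and 0 at a fold change of at least 2. Of 15 tested epithelial transcription factors, 4 were lower, among them EHF (4260.3 to 1680.1, -1.33) and GRHL3 (337.9 to 144.3, -1.20), and FOXA2 was higher (98.6 to 231.5, 1.43). The FOXA2 call was lost without shControl 2 and without any 1 of the shRNF25 libraries, with limma adjusted p up to 0.122.

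SNAI1, a paralog of SNAI2 that encodes the CDH1 repressor Snail, fell, whereas none of the 4 factors above was called. Levels reached normalized counts of 440.0, 281.1 and 318.4 in shControl and 91.1, 83.1 and 87.7 in shRNF25. Every knockdown library was far below every control (log2 fold change -1.95, SE 0.182, limma adjusted p = 0.000178). Of 14 tested EMT-inducing factors besides the 4, 5 were lower and 0 higher, with a median of -0.25. The others were RUNX2 (840.6 to 330.8, -1.31), ETS1 (-0.98), HMGA2 (-0.85) and SOX4 (-0.75), the last of which was lost without shControl 3 or shRNF25 1. BMI1, a Polycomb subunit, had a log2 fold change of 0.32 with an unadjusted limma p of 0.0143 and was not called, and neither edgeR nor DESeq2 called a gene of this list higher.

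Of 22 tested EMT-inducing signals and receptors, 6 were lower and 1 higher, with a median of -0.23. The inflammatory cytokines IL6 (3703 to 255.8, log2 fold change -3.83) and TNF (72.8 to 3.78, -4.30) fell most, followed by the activin subunit INHBA (26617 to 3387, -2.97), TGFB2 (11006 to 3723, -1.50) and the receptor EGFR (14315 to 6945, -1.03). TNF passed the filter only with its shControl libraries, where it was high, so its call serves as a description. FGF2 rose from 137.9 to 305.8 (1.15). Of 10 tested splicing regulators other than ESRP1, QKI, which regulates alternative splicing and circular RNA formation, was lower (3998 to 2293, -0.77), a call lost without shControl 1, shRNF25 1 or shRNF25 3 (limma adjusted p up to 0.063). Its fellow ESRP2, which shares the epithelial targets of ESRP1, stood at 1939.8 and 1881 (-0.04, limma adjusted p = 0.772). Of 18 cofactors and ubiquitin ligases of the SNAI, ZEB and TWIST proteins, limma and DESeq2 called 0 in either direction. Called higher were 1 with edgeR, 2 after quantile normalization and 1 after rescaling on the median ratio. Without shControl 1, 1 was lower and 1 higher, and without shControl 3, 1 was lower. With the limma adjusted p alone, 3 were lower and 2 higher, beside 21.3% of all tested genes in either direction.

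The cadherin repertoire shifted in both directions. Of 8 other cadherins that passed the filter, 3 were lower, 4 were higher and 1, CDH15, was not called. CDH11, a cadherin of mesenchymal cells and osteoblasts, had normalized counts of 805.9, 794.1 and 402.6 in shControl and 2164, 2148 and 2255 in shRNF25 (log2 fold change 1.78, limma adjusted p = 0.00117). The 3 knockdown libraries lay close together, well above the highest control. CDH3, the P-cadherin of basal epithelia, fell from 6178 to 3624 (-0.77) and the endothelial cadherin CDH5 from 124.7 to 5.89 (-4.12). CDH5 passed the filter only with its shControl libraries, where it was high, so its call serves as a description. Of 9 endothelial markers with a row, 8 exceeded 3 reads in some library and ERG did not, and their sum was 808.1 to 1279 in shControl and 757.3 to 927.6 in shRNF25. The endothelial markers did not move together. Of the 4 tested, CDH5 was called lower and KDR higher (log2 fold change 1.55 to 1.93 over 16 alternatives). PECAM1, the most abundant, stood at 400.3 and 451.8. CDH26 (48.6 to 128.2, 1.41), CDH8 (1.19) and CDH7 (0.66) rose as well. The higher calls dropped to 2 without shControl 2, shRNF25 2 or shRNF25 3, when CDH7 and CDH8 were lost, and CDH8 was also lost without shRNF25 1. Among the catenins, which link cadherins to actin, JUP fell and CTNND2 rose from 14.3 to 51.0 (1.81), and CTNNB1, at 8388 and 7142, was not called (-0.23, limma adjusted p = 0.156). JUP fell short of 1.5-fold after quantile normalization, after rescaling on the median ratio, with edgeR, and without shControl 3 or shRNF25 3, and CTNND2 failed the filter of 50.

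**Figure D4:**
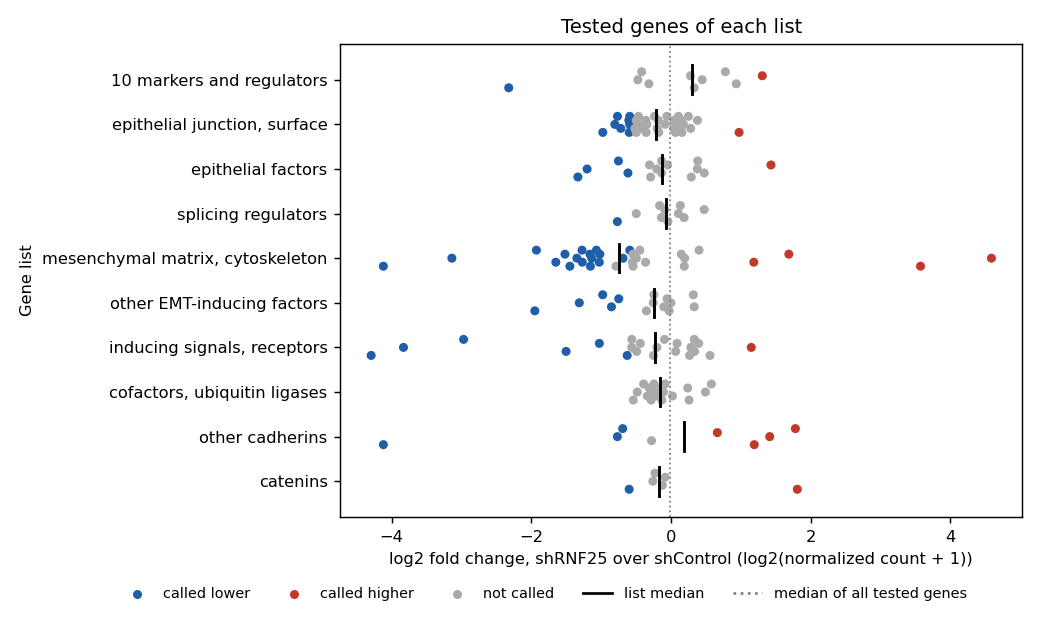
Log2 fold change (shRNF25 over shControl, log2(normalized count + 1)) of every tested gene of the 10 markers and regulators and of 9 lists, 1 point per gene, with a black bar for the list median and a dotted line for the median of all tested genes (-0.01). Called genes of the mesenchymal list ran from TGFBI at -4.12 to COL3A1 at 4.59, with a median of -0.74 against 0.31 for the 10 genes.

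The genes of the miR-200 family shown above were counted as hairpin genes in total RNA, which does not measure the mature microRNAs. MIR200B had 23, 22 and 19 reads in shControl and 12, 9 and 13 in shRNF25, or normalized counts of 25.4, 22.6 and 20.5 and of 10.9, 8.31 and 12.4. It was lower in every knockdown library (log2 fold change -1.06, SE 0.279, limma adjusted p = 0.0262), with a ratio of 0.462 and a counting interval of 0.295 to 0.71. MIR200B passed the filter only with its shControl libraries, where it was high, so its call serves as a description. The call was lost in 8 of 16 alternative settings, which were the fit with no filter, DESeq2, the replicate block, library weights by group, and the fits without shControl 2 or any 1 of the shRNF25 libraries (adjusted p up to 0.114), and the gene failed the filter of 50. Its neighbours with the same strand and locus were not called. MIR200A had a log2 fold change of -0.05 (limma adjusted p = 0.953) and MIR429 of 0.05 (limma adjusted p = 0.951), with widely scattered controls of 6.63 to 19.4 and 8.84 to 34.5. MIR205HG, the host of a further ZEB-targeting microRNA, had a log2 fold change of 0.00 (452.7 and 453.2), and MIR205 itself was below the filter.

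Antisense genes share exon bases with several of the 10 genes. The paper names a stranded library kit, but the sources used here do not state whether counting used the strand. VIM-AS1 overlaps 641 bases of the VIM exons (12.4%) on the other strand. It had 3 reads in each shControl library, and its normalized counts were 3.32, 3.08 and 3.24 in shControl and 15.5, 13.9 and 14.3 in shRNF25. The ratio of summed normalized reads was 4.54 with a counting interval of 2.2 to 10.5 (limma log2 fold change 1.88, adjusted p = 0.00405). VIM-AS1 passed the filter only with its shRNF25 libraries, where it was high, so its call serves as a description. Reads of VIM and VIM-AS1 in the shared bases cannot be told apart if counting ignored the strand. The counted level of VIM-AS1 was at most 1.93% of VIM in any library, which does not bound the reads in the shared bases. The share of antisense reads in VIM was not tested. ZEB1-AS1 shares 366 bases (4.23%) with ZEB1 and was not called (59.9 and 44.5, -0.39, limma adjusted p = 0.265).

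FN1 had the largest moderated t of the 10, so the genes with the most similar profile were listed for it alone. Over the 6 libraries and 16553 other tested genes, the log2 values of LAMB1, a laminin chain (Pearson r = 0.9988), GBP1, an interferon-inducible GTPase (0.9987), and GCNT1, an O-glycan branching enzyme (0.9976), followed it most closely. These coefficients describe a profile that largely reflects the difference between the groups, and 49 genes had r above 0.99. Because the libraries are bulk RNA, fewer cells of a type and less RNA per cell cannot be told apart in any of these values. The leukocyte markers summed to 66.3 to 79.0 in shControl and 72.4 to 102.1 in shRNF25, with CD3E and CD68 at 3 reads or fewer in every library.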

How the data were processed

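Total RNA of SW839 cells was sequenced in 3 shControl and 3 shRNF25 libraries, grouped by titles and genotype labels. The authors deposited 1 table of normalized counts, a size-factor-scaled signal, for 30267 genes. The submitters' processing notes name fastp, HISAT2, HTSeq and GRCh38, without versions, and the strand setting of counting is not given in the sources used here. Whole reads were recovered for 100% of values (tolerance 0.1 reads), 18647460 to 19943154 per library. Intervals on reads cover counting error only.

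Values were taken as log2(normalized count + 1) and compared with limma 3.58.1 (lmFit, eBayes with trend; R 4.3.3) without covariates, after keeping 16554 genes with at least 10 in at least 3 libraries, with Benjamini-Hochberg adjustment. Called genes had an adjusted p below 0.05 and differed by 1.5-fold or more. The filter ignored group, so genes low in 1 group could pass through the other. Among them, COL3A1, SPARC, VIM-AS1 and ZEB2 passed only with their shRNF25 libraries. TNF, CDH5 and MIR200B passed only with their shControl libraries. The fit was tested on simulated data with the same dispersion for all genes and in both groups. In the real libraries, the controls of FN1 and VIM spread more than the shRNF25 libraries, which the simulation does not cover. The genes and lists were chosen with earlier results of these data known. Named were the 10 genes and RNF25, in each list up to 2 called genes with the largest fall and 2 with the largest rise, every microRNA and antisense gene with over 3 reads, and the 3 profiles closest to the called gene with the largest moderated t. THBS1, ITGA5, TNC, MMP14, S100A4, COL5A2, CLDN7, KRT7, DSP, ETS1, HMGA2, SOX4, BMI1, INHBA, TGFB2, EGFR, ESRP2, CDH7, CDH8, CDH15, CTNNB1, KDR, PECAM1, PDGFRA, PDGFRB, THY1, FAP and LUM were named after their values were seen.

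Alternatives were pseudocounts of 5 and 0.5, no filter, at least 50 in 3 libraries, rescaling by quantiles or by the median ratio, edgeR 4.0.16 and DESeq2 1.42.0 on recovered reads, a replicate block, library weights by group, each library left out, a fold change of at least 2, and the adjusted p alone.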

Additional observations from a re-analysis of the deposited data

How the results depend on the processing

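Results for FN1, VIM and RNF25 kept their direction and call under all 16 alternatives to their fit, and no result reversed. With the adjusted p alone, 2 of the 10 genes were lower (FN1 and CDH1). With each library left out in turn, the number of the 10 called higher ranged from 1 to 3, the log2 fold change of ZEB1 from 0.66 to 1.45 and that of SNAI2 from 0.13 to 0.69, and the upper values are those without shControl replicate 1. At a fold change of at least 2, 26 pathway genes were lower instead of 45. CDH1 had an adjusted p below 0.05 in 12 of 16 alternatives, ESRP1 in 3, CDH2 in 2, TWIST1 and EPCAM in 1 each and ZEB2 in 0 of 15, having failed the filter of 50, and in none did these 6 genes reach the call. Replicate numbers did not pair the libraries (correlations of deviations of -0.06, -0.09 and 0.05 for same-numbered libraries). With the replicate block, 1193 genes of the table were lower and 1398 higher, against 1175 and 1432, and the log2 fold change of FN1 was -2.32 and of VIM 1.31. Depth limits ZEB1, ZEB2, MIR200B and VIM-AS1, which rest on fewer than 100 reads per library.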
